A study of Homo sapiens with 4 samples.

Results

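YAP1, the DNA-binding TEAD factors and their best known target genes were followed in gastric cancer cells in which the homeobox transcription factor HOXB9 had been knocked down. The 10 genes were chosen by name from the pathway, under the symbols of the deposited table: YAP1, TEAD1, TEAD4, CTGF, CYR61, ANKRD1, AMOTL2, AJUBA, LATS2 and AXL. Each of the 10 had exactly 1 of the table's 57815 rows. RNA came from AGS and MKN1, established human lines from gastric carcinomas. In each line 1 culture received a scrambled control siRNA (siScramble, genotype labelled WT) and 1 an siRNA against HOXB9 (siHOXB9, genotype labelled HOXB9 knockdown), in both cases with the lipid reagent Lipofectamine 2000. The title of the MKN1 control spells the line MNK1, while its other labels give MKN1. Polyadenylated RNA of these 4 cultures was sequenced as 1 library each, with no replicate within a line. The labels give the aim as finding potential HOXB9 target genes.

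YAP1 is a transcriptional coactivator without a DNA-binding domain of its own. The Hippo kinases STK3 and STK4 activate the kinases LATS1 and LATS2. These phosphorylate YAP1 and its paralogue WWTR1 (TAZ) and keep them in the cytoplasm. Unphosphorylated YAP1 enters the nucleus, binds TEAD factors and raises transcription of genes for secreted matricellular proteins (CTGF, CYR61), cytoskeletal and muscle-repeat proteins (ANKRD1), receptors (AXL) and feedback inhibitors (LATS2, AMOTL2). The pathway responds to cell density, adhesion and stiffness, and YAP1 is often active in gastric carcinoma. Because YAP1 is controlled by phosphorylation and location, its transcript level is not a readout of its activity.

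TEAD factors recognise the motif GGAATG, read CATTCC on the other strand. Sequences upstream of the genes show where these letters stand in the targets whose transcripts are compared here. RefSeq (GRCh38.p14) gave 10 start sites for 7 of the 10 genes, and in each the 250 bases before the start were searched on both strands. The motif was in 6 of the 10 windows, against 11.9% of 35116 windows of the same length. CTGF held 3 copies, as did or exceeded 0.0826% of all windows, and ANKRD1 held 2, as did or exceeded 0.940%. The AP-1 motif TGANTCA, which reads the same on both strands, was in 1 of the 10 windows, that of ANKRD1, against 6.57% of all windows. It can share the letters TG with the TEAD motif, but the copy in ANKRD1 overlaps neither TEAD copy. LATS2 held neither motif in its window. The stretches below run 5′ to 3′ on the gene's strand, with the TEAD motif in capitals. They lie at chr6:131951450-131951553 (reverse strand) for CTGF, chr10:90921290-90921319 and chr10:90921198-90921227 (reverse strand) for ANKRD1, and chr3:134374499-134374528 (reverse strand) for 1 of the AMOTL2 starts.
CTGF, 181 to 78 bases upstream: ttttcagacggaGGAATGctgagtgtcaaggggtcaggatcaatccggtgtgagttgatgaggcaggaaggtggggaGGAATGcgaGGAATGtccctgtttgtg
ANKRD1, 232 to 203 bases upstream: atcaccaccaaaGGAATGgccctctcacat
ANKRD1, 140 to 111 bases upstream: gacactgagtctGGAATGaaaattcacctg
AMOTL2, 81 to 52 bases upstream: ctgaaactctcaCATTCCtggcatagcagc
Distances upstream count from the RefSeq starts. The GENCODE annotation, used for the gene positions below, gives ANKRD1 a different start: chr10:90912096-90921276 on the reverse strand, with 1 transcript. The ANKRD1 stretch at chr10:90921198-90921227 lies within that span, so its copy is upstream by the RefSeq start only. The other ANKRD1 stretch is upstream by both. A match of letters is a description and not evidence of binding. CTGF and ANKRD1 are shown as the genes with several copies, and AMOTL2 as the member with the lowest siHOXB9 p over both lines. YAP1, AJUBA and AXL held 1 copy each, in 1 window.

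The libraries were of like depth, between 10610000 and 12970000 fragments as estimated from the low values of genes with 1 transcript. HOXB9 itself was at 16.4 FPKM (read fragments scaled to gene length and library size) with siScramble and 4.44 with siHOXB9 in AGS, and at 1.14 and 0.218 in MKN1. With siScramble the AGS level was 14.4 times that of MKN1. The MKN1 values rest on about 30.55 and 5.36 fragments, those of AGS on about 494.9 and 128.6. Both lines held epithelial keratin transcripts, with KRT8 at 1077 FPKM or more in all 4 libraries. In MKN1 several other epithelial markers were low: EPCAM stood at 2.14 FPKM with siScramble against 328 in AGS, KRT19 at 2.02 against 838, and CDH1 at 0.0752 against 1.63. Leukocyte markers summed to 2.88 to 13.5 FPKM over 5 genes, nearly all from CD68, and endothelial markers to 0.00897 to 1.96 over 3 genes. CD3E and KDR were listed at 0 in every library. Fibroblast markers (7 genes) summed to 28.4 and 43.5 FPKM in the AGS libraries and to 59.1 and 72.6 in the MKN1 libraries, with COL1A2 listed at 0 in all 4.

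Within a line the change of a gene is given as log2((siHOXB9 FPKM + 1)/(siScramble FPKM + 1)), which understates changes of genes near or under 1 FPKM. A 2-fold difference on this scale, a change of at least 1 in size, was the size rule, applied where a gene reached 1 FPKM in 1 or both of that line's libraries. With 1 library per group no test was possible within a line. Both lines together were fitted in limma on the same scale, with siRNA and line as factors. That fit leaves 1 residual degree of freedom per gene, to which limma adds a spread shared over genes. Its p-values were adjusted by Benjamini-Hochberg over all 13758 genes tested. Their spread comes only from how far the 2 lines disagree in the siHOXB9 change, in that gene and over genes. The same spread serves the difference between the lines. Spread between cultures of the same group could not be measured. For genes with a single coding transcript, the number of fragments was estimated, and an exact (Clopper-Pearson) 95% interval of the siHOXB9 to siScramble ratio was computed. Such intervals cover counting error only.

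YAP1 was among the more abundant of the 10 transcripts in every library. It was at 64.9 FPKM in AGS with the control siRNA, 66.3 in AGS siHOXB9, 82.4 in MKN1 siScramble and 105.8 in MKN1 siHOXB9. The AGS libraries were nearly equal (change 0.03), and the MKN1 knockdown library was the highest of the 4 (change 0.36, or 0.26 after centring on the median gene). YAP1 lies on the forward strand at chr11:102110461-102233423 (GRCh38, GENCODE 29), and 10% of its exon bases overlap an antisense gene, AP000942.2, whose reads may not be separable. Its paralogue WWTR1 was lower throughout, at 11.2 and 8.84 FPKM in AGS and 26.9 and 29.1 in MKN1 (siScramble, then siHOXB9). YAP1 thus exceeded WWTR1 5.79 and 7.50 times in AGS and 3.07 and 3.63 times in MKN1. In limma WWTR1 was higher in MKN1 by 1.404 (SE 0.204, adjusted p = 0.000913, both siRNAs in the fit), past both the p threshold and the size rule. YAP1 was higher by 0.50 (SE 0.176, adjusted p = 0.0416), which passed the p threshold but not the size rule.

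TEAD factors differed between the lines more in kind than in sum. TEAD1 (chr11:12674591-12944483, forward strand) was at 17.2 FPKM with siScramble and 15.8 with siHOXB9 in AGS, and at 52.0 and 39.6 in MKN1. The lines did not overlap, and in each the siHOXB9 library was the lower one (changes -0.12 and -0.39). TEAD4 (chr12:2959330-3040673, forward strand) was at 54.0, 40.5, 83.3 and 77.1 FPKM in the same order, again lower with siHOXB9 in both lines (changes -0.40 and -0.11). All 4 TEAD genes together summed to 189.8 and 161.5 FPKM in AGS and 174.7 and 153.9 in MKN1. TEAD2 made up 50.1% of this sum in AGS siScramble and 52.9% in AGS siHOXB9, but 16.2% and 17.3% in MKN1. TEAD4 made up 28.4% and 25.1% in AGS, and 47.6% and 50.1% in MKN1. The share of TEAD1 was 9.04% and 9.76% in AGS against 29.8% and 25.7% in MKN1. In limma TEAD1 was higher in MKN1 by 1.41 (SE 0.185, adjusted p = 0.000567) and TEAD2 lower (estimate -1.68, SE 0.17, adjusted p = 0.000159). TEAD4, at 0.76 (SE 0.176, adjusted p = 0.00781), stayed under the size rule, as did TEAD3 (23.5 and 19.7 FPKM in AGS, 11.2 and 10.5 in MKN1).

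**Figure D1:**
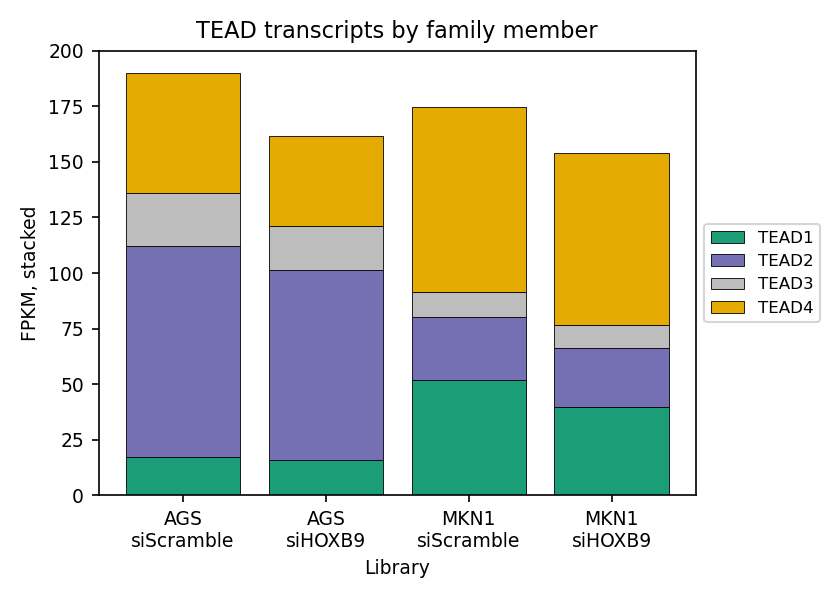
Stacked FPKM of TEAD1 to TEAD4 (y axis) in each of the 4 libraries (x axis), 1 library per bar. The sums lie between 153.9 and 189.8 FPKM, while TEAD2 forms the largest part in AGS and TEAD4 in MKN1.

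LATS2, the kinase that phosphorylates YAP1 and is itself a YAP target, had the largest siHOXB9 change of the 10 genes on the log2(FPKM + 1) scale. It was at 5.26 FPKM in AGS siScramble, 5.72 in AGS siHOXB9, 11.4 in MKN1 siScramble and 22.7 in MKN1 siHOXB9. The MKN1 knockdown library stood 1.99 times above its control (counting interval 1.81 to 2.19, about 692 and 1265 fragments), and the AGS ratio was 1.09 (0.938 to 1.26, about 358 and 374 fragments). On the log2 scale the changes were 0.93 in MKN1, just under the size rule, and 0.10 in AGS. LATS2 (chr13:20973032-21061547, reverse strand) has a single coding transcript of 5511 bases. The other LATS kinase, LATS1, was at 3.03 and 2.77 FPKM in AGS and 2.46 and 3.68 in MKN1.

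AMOTL2, an angiomotin-family junction protein that holds YAP1 outside the nucleus and is a YAP target, was higher with siHOXB9 in both lines. It was at 12.05 FPKM in AGS siScramble, 16.8 in AGS siHOXB9, 39.7 in MKN1 siScramble and 57.6 in MKN1 siHOXB9. Ratios were of like size, with changes of 0.45 in AGS and 0.52 in MKN1. Over both lines the limma estimate was 0.49 (95% interval 0.06 to 0.91, unadjusted p = 0.0296, adjusted p = 0.662), so it was not called. Over 7 alternatives the adjusted p ran from 0.592 to 1. AMOTL2 (chr3:134355874-134375479, reverse strand) shares 3.1% of its exon bases with the pseudogene RPL39P5, which was at 0.11 FPKM or less.

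AJUBA, a LIM protein that binds LATS kinases, differed least between siRNAs when both lines are considered, by at most 0.10 on the log2 scale. It stood at 57.0 FPKM in AGS siScramble, 55.1 in AGS siHOXB9, 31.5 in MKN1 siScramble and 33.8 in MKN1 siHOXB9. The changes were -0.05 in AGS, which turned to 0.05 when the FPKM totals were made equal, and 0.10 in MKN1. AJUBA lies at chr14:22971174-22982642 on the reverse strand. AJUBA and ANKRD1 were the members with lower levels in MKN1 than in AGS under both siRNAs.

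CTGF (CCN2 in current naming) and CYR61 (CCN1) encode matricellular proteins of the same family and are the usual readouts of YAP activity. CTGF was at 16.3 FPKM in AGS siScramble, 21.5 in AGS siHOXB9, 30.6 in MKN1 siScramble and 23.7 in MKN1 siHOXB9. The siHOXB9 library was the higher one in AGS (ratio 1.32, counting interval 1.16 to 1.499) and the lower one in MKN1 (0.774, 0.691 to 0.867), so that the lines were closest under siHOXB9. Both signs held with rescaling and centring. CYR61 stood at 6.59, 8.28, 169 and 164 FPKM in the same order. Its AGS ratio was 1.26 (1.02 to 1.55, about 173 and 209.5 fragments) and its MKN1 ratio 0.969 (0.925 to 1.01). The 2 genes thus differed in how far the lines lay apart: without HOXB9 knockdown, MKN1 exceeded AGS 25.7 times for CYR61 and 1.88 times for CTGF. CYR61 lies at chr1:85580761-85583962 on the forward strand. CTGF lies at chr6:131948176-131951373 on the reverse strand and shares 8.3% of its exon bases with the antisense gene AL133346.1.

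ANKRD1, an ankyrin-repeat protein of the nucleus and sarcomere, was abundant in AGS and almost missing from MKN1. In AGS it was at 63.6 FPKM with siScramble and 51.9 with siHOXB9, and in MKN1 at 0.253 and 0.882. The AGS level was 252 times that of MKN1 with siScramble and 58.8 times with siHOXB9. The MKN1 values rest on about 5.02 and 16.1 fragments, and their ratio of 3.49 had a counting interval of 1.22 to 12.2. In AGS the ratio was 0.816 (0.753 to 0.883, about 1418 and 1112 fragments). ANKRD1 (chr10:90912096-90921276, reverse strand) has 1 annotated transcript of 1979 bases and no exon overlap.

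AXL, a receptor tyrosine kinase, showed the reverse pattern between the lines. In AGS it was at 2.76 FPKM with siScramble and 2.04 with siHOXB9, and in MKN1 at 98.8 and 91.5. MKN1 exceeded AGS 35.8 times with siScramble and 44.8 times with siHOXB9. The siHOXB9 library was the lower one in both lines (changes -0.30 and -0.11). AXL lies at chr19:41219203-41261766 on the forward strand.

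**Figure D2:**
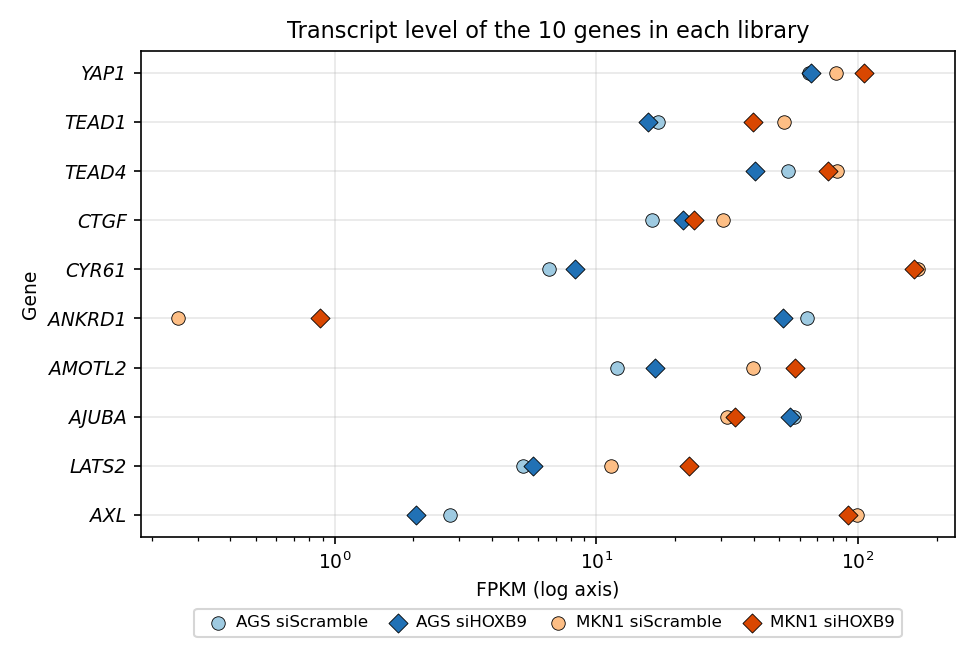
FPKM on a log axis (x) of the 10 genes (y) in the 4 libraries, 1 point per library, with circles for siScramble and diamonds for siHOXB9. CYR61 and AXL are at 91.5 FPKM or more in MKN1 and at 8.28 or less in AGS, while ANKRD1 is at 51.9 or more in AGS and at 0.882 or less in MKN1.

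Ordered by level in AGS siScramble, YAP1 came first, then ANKRD1, AJUBA, TEAD4, TEAD1, CTGF, AMOTL2, CYR61, LATS2 and AXL. In MKN1 siScramble the order was CYR61, AXL, TEAD4, YAP1, TEAD1, AMOTL2, AJUBA, CTGF, LATS2 and ANKRD1. With 1 library per group no spread is available to say which neighbours differ. FPKM is per length, so levels of different genes can be set side by side.

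The knockdown comparison asked which of these genes changed with siHOXB9. In AGS 0 of 10 passed the size rule in either direction, where 1.68% of 13252 genes were higher and 2.21% lower. In MKN1 ANKRD1 stayed under 1 FPKM, and 0 of the other 9 passed it, where 2.1% of 13122 genes were higher and 1.94% lower. The changes ran from -0.40 to 0.45 in AGS, with a median of -0.01, and from -0.39 to 0.93 in MKN1, with a median of -0.05. Over all genes the medians were -0.06 and 0.10. YAP1, AMOTL2 and LATS2 lay higher with siHOXB9 in both lines, and TEAD1, TEAD4 and AXL lower. CTGF and CYR61 were higher in AGS and lower in MKN1, and ANKRD1 and AJUBA the other way round, although AJUBA turns in AGS with rescaling or centring. Over both lines limma called 0 of the 10 genes at an adjusted p of 0.05, and 0.00727% of all genes (1 gene). At an unadjusted p below 0.05 there were 980 genes in all. The members' adjusted p ran from 0.662 for AMOTL2 to 0.994 for CTGF, and AMOTL2 alone had an unadjusted p below 0.05. The 95% interval for YAP1 was -0.22 to 0.61, for CYR61 -0.31 to 0.56, for CTGF -0.52 to 0.55 and for LATS2 -0.08 to 1.12. These bounds depend on the fit: with no filter the interval of CTGF was -0.98 to 1.00, and with no term for line it was -1.24 to 1.26, that of YAP1 -0.87 to 1.25 and that of CYR61 -6.11 to 6.35. HOXB9 itself had an estimate of -1.25 (adjusted p = 0.355).

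**Figure D3:**
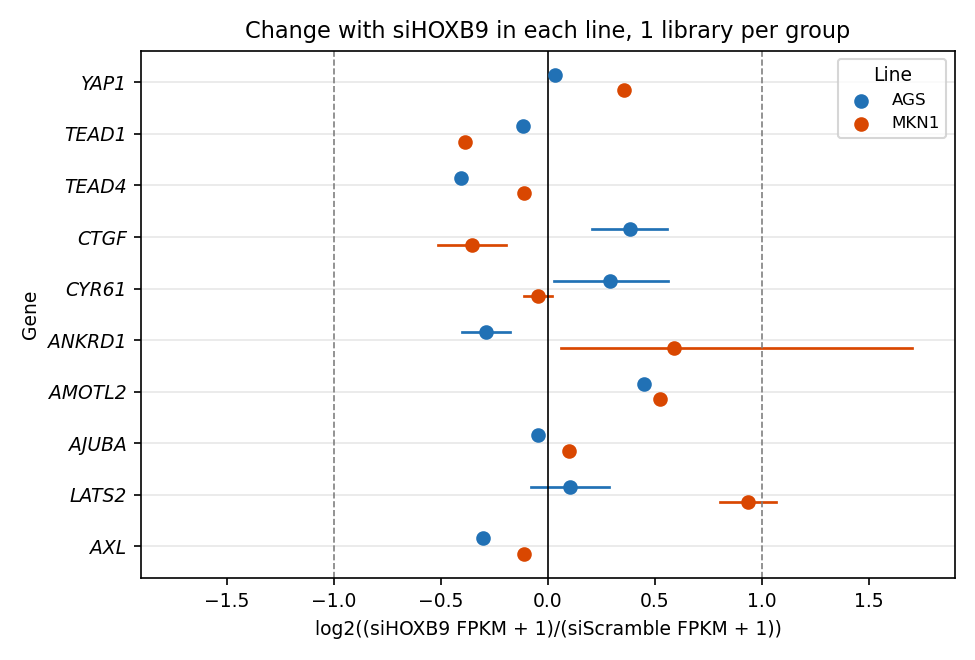
Change with siHOXB9 on the log2(FPKM + 1) scale (x) of the 10 genes (y) in AGS and MKN1, 1 library per group. Bars are 95% counting intervals, drawn for the 4 genes with a single coding transcript, and dashed lines mark the 2-fold rule, which no point passes, with LATS2 in MKN1 nearest at 0.93.

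The lines were compared over both siRNAs, 2 libraries per line, of different siRNAs and so not replicate cultures. Of the 9 members that reached 1 FPKM in both lines, 5 were higher in MKN1 by the adjusted p and the size rule and 0 lower, where 10.6% of 11547 such genes were higher and 17.1% lower. AXL had an estimate of 4.83 (SE 0.191, adjusted p = 2.31e-06) and CYR61 of 4.32 (SE 0.184, adjusted p = 3.04e-06). AMOTL2 followed at 1.68 (SE 0.179, adjusted p = 0.000209), TEAD1 at 1.41, and LATS2 at 1.404 (SE 0.254, adjusted p = 0.00259). LATS2 was not called with no filter on low values (adjusted p = 0.102, range 0.000995 to 0.102 over 6 alternatives). The LATS2 difference was 0.988 with the siScramble libraries alone, under the size rule, and 1.819 with the siHOXB9 libraries alone. AJUBA was at -0.76 (SE 0.173, adjusted p = 0.00729), under the size rule. CTGF was at 0.50 (95% interval -0.03 to 1.04, adjusted p = 0.0952) and was not called. By the adjusted p alone, 59.1% of all genes differed between the lines. ANKRD1 entered the fit through its AGS libraries and so had to differ. Its estimate was -5.25 (SE 0.261, adjusted p = 5.03e-06). Without the condition on both lines, 16.2% of 13758 genes were higher in MKN1 and 20.9% lower. The epithelial markers KRT19 (estimate -8.11), EPCAM (-6.66), CLDN4 (-3.16) and CDH1 (-1.51) were lower in MKN1. Of these, CDH1 entered the fit through its AGS libraries and so had to differ. KRT8 (-0.58) and KRT18 (-0.20) stayed under the size rule. The part of the epithelial markers in these differences was not tested. The fibroblast markers were split between the lines: COL3A1 (estimate 4.20) and LUM (2.57) were higher in MKN1, while PDGFRA (-3.75) was at 12.2 and 12.7 FPKM in AGS and listed at 0 in both MKN1 libraries. COL3A1 and LUM entered the fit through their MKN1 libraries and PDGFRA through its AGS libraries, so they had to differ. The part of the fibroblast markers was not tested either. Fewer cells with a transcript and less of it per cell cannot be told apart in RNA from whole cultures.

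**Figure D4:**
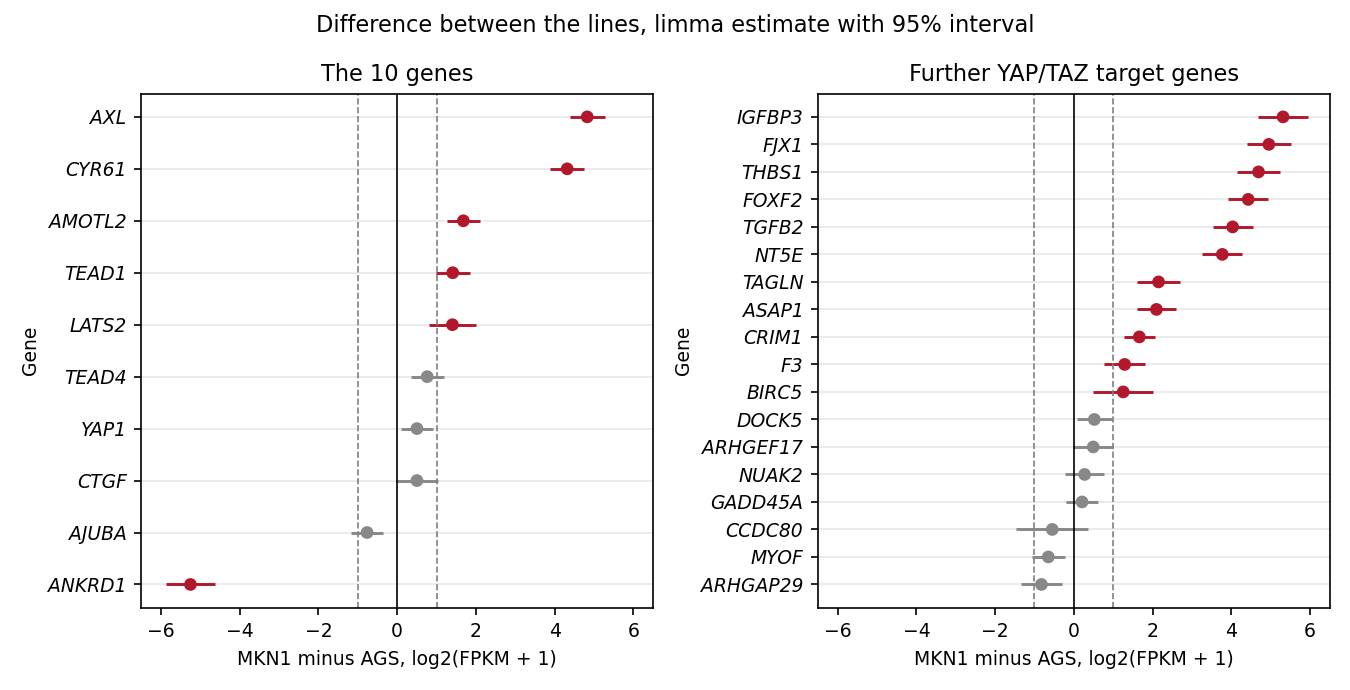
Difference between MKN1 and AGS on the log2(FPKM + 1) scale (x), as the limma estimate with its 95% interval over 2 libraries per line, for the 10 genes (left) and 18 further target genes (right). Red marks an adjusted p under 0.05 with a difference of at least 2-fold (dashed lines), and ANKRD1 is the only red gene lower in MKN1.

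Other genes of the pathway were taken from lists that leave out the 10 members. Among 19 further YAP and TAZ target genes, 13 were measured in AGS. CCDC80, a matrix protein (3.46 FPKM against 10.04, change 1.31), and THBS1, thrombospondin 1 (1.60 against 4.67, change 1.13), passed the size rule as higher with siHOXB9. BIRC5, survivin, which is also a mitotic gene, passed it as lower (50.7 against 19.1, change -1.36). These 2 and 1 of 13 stand beside 1.68% and 2.21% of all AGS genes, and the median was 0.16. In the same AGS libraries the 7 fibroblast markers summed to 28.4 against 43.5 FPKM. Of these COL1A1 was at 15.8 against 29.3, PDGFRA at 12.2 against 12.7, PDGFRB at 0.332 against 1.305 and LUM at 0 against 0.109. COL3A1 was at 0.0874 against 0.0605, with COL1A2 and DCN listed at 0. The 6 epithelial markers summed to 3848 against 4522 FPKM there. The part of these markers was not tested. TAGLN, an actin-binding protein, stood at 54.8 FPKM against 100.2 in AGS (change 0.86), under the rule. In MKN1 0 of 19 passed, with a median of -0.02. F3, tissue factor, was at 12.7 FPKM against 24.3 there (change 0.88), CCDC80 at 4.59 against 3.13 (change -0.44) and BIRC5 at 72.5 against 79.4 (change 0.13). Limma called 0 of the tested target genes for siHOXB9, and 2 of 18 had an unadjusted p below 0.05, as did 980 of 13758 genes in all.

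Between the lines every further target that was called was higher in MKN1. Of 13 that reached 1 FPKM in both lines, 6 were higher in MKN1 and 0 lower: THBS1 (estimate 4.69, with 1.60 and 4.67 FPKM in AGS and 87.1 and 110.6 in MKN1), TAGLN, ASAP1, CRIM1, F3 and BIRC5. The other 7 of the 13 were not called, among them ARHGAP29 (estimate -0.82, adjusted p = 0.0151) and MYOF (-0.65, adjusted p = 0.016), which passed the p threshold as lower in MKN1 but not the size rule. The shares over all such genes are the 10.6% and 17.1% given above. Another 5, namely IGFBP3, FJX1, FOXF2, TGFB2 and NT5E, entered through their MKN1 libraries and had to differ. IGFBP3, a secreted binder of insulin-like growth factors, was at 0.0393 and 0.257 FPKM in AGS and 55.6 and 35.5 in MKN1.

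Hippo kinases and their scaffolds inhibit YAP1. Of 17 measured in each line, 0 passed the size rule in AGS (median 0.04) and 1 in MKN1 (median 0.03, and -0.07 after centring), beside 2.1% higher and 1.94% lower over all MKN1 genes. That gene was STK3, the MST2 kinase at the top of the cascade, with 13.9 FPKM in MKN1 siScramble against 3.82 in MKN1 siHOXB9 (change -1.63). In AGS STK3 was at 16.0 against 8.96 (change -0.77). Over both lines the limma estimate for STK3 was -1.20 (SE 0.257, unadjusted p = 0.00211, adjusted p = 0.355), which is not a call. Its paralogue STK4 (MST1) was at 14.7 against 15.2 in AGS and 12.6 against 14.5 in MKN1. Among genes of the list at 5 FPKM or more in a library of the line, the next largest changes were those of TAOK3 (0.79 in MKN1), WWC1 (-0.53 in MKN1) and MOB1B (-0.48 in AGS). Below that level FRMD6 had a change of 0.61 in AGS (1.19 against 2.35 FPKM). Between the lines FRMD6 and RASSF1 were higher in MKN1, and FAT1, MAP4K4, MOB1B and SAV1 lower, which is 2 and 4 of 17 beside 10.6% and 17.1% of all genes that reached 1 FPKM in both lines. FAT1, an atypical cadherin, was at 51.0 FPKM in AGS siScramble against 4.82 in MKN1 siScramble.

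Of 8 measured junction and LIM proteins that bind YAP1 or LATS, 0 passed the size rule in either line, with medians of 0.03 in AGS and 0.06 in MKN1 (-0.04 after centring). The shares over all genes were 1.68% higher and 2.21% lower in AGS, and 2.1% and 1.94% in MKN1. At 5 FPKM or more in a library of the line, LIMD1 had the largest change (0.34 in AGS), followed by CTNNA1 (0.25 in AGS). Below that level AMOTL1 had a change of -0.25 in MKN1. WTIP and zyxin (ZYX) were higher in MKN1 than in AGS, and the tight junction protein TJP1 lower. Calls between the lines numbered 2 higher and 2 lower of 8, beside 10.6% and 17.1% of all genes that reached 1 FPKM in both lines. Of 5 coactivators and DNA-binding partners measured in each line, 0 passed the size rule, beside the same shares per line, with medians of -0.15 and -0.08. VGLL4, which competes with YAP1 for TEAD, was at 35.9 FPKM against 49.8 in MKN1 (change 0.46). VGLL3, another TEAD cofactor, was listed at 0 in AGS siScramble and at 0.0158 FPKM in AGS siHOXB9, with 11.2 and 8.40 in MKN1. VGLL1, of the same cofactor family, was at 1.45 and 1.93 FPKM in AGS and listed at 0 in both MKN1 libraries (estimate -1.42, adjusted p = 0.00105). VGLL3 and VGLL1 each entered the fit through 1 line and had to differ. Limma called 0 genes of these 3 lists for siHOXB9, and STK3 alone had an unadjusted p below 0.05. Over all 13758 genes it called 1, and 980 had an unadjusted p below 0.05.

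ANKRD1 varied most over the 4 libraries, by 5.69 on the log2 scale. Among 13662 other genes, the 5 with the most similar pattern were CRB3, FOXA3, MAPK13, GYLTL1B and TM4SF5, at Euclidean distances of 0.18 to 0.36 between log2(FPKM + 1) values centred on each gene's mean. CRB3, an epithelial polarity protein, was at 85.3 and 78.3 FPKM in AGS and at 0.850 and 1.99 in MKN1. FOXA3, a forkhead factor, was at 41.6 and 40.4 FPKM in AGS and at 0.0503 and 0.324 in MKN1. MAPK13, a p38 kinase, was at 79.4 and 79.0 FPKM in AGS and at 0.593 and 1.11 in MKN1. These likenesses rest on 4 libraries of 2 lines and describe a difference between the lines.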

How the data were processed

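The authors deposited 1 table of FPKM values per gene symbol, with 1 column per library, 4 in all. Column sums ran from 777152 to 831098, so the totals were not made equal. Builds GRCh38 and hg38 are named in the submitters' processing notes. Aligner, counter and annotation: not given in the sources used here. Per the labels' protocols, libraries came from poly-T selected, fragmented RNA, and no step that keeps the strand is described.

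Symbols were joined to GENCODE 29. Depth was recovered from genes with 1 transcript, shortened by 260 bases, where 53.9% to 56.3% of low FPKM values came within 0.05 of whole fragments. Fragment numbers are estimates, and a fragment in a transcript of 2 kb is worth 0.0443 to 0.0542 FPKM. log2(FPKM + 1) was computed from the deposited values. limma 3.58.1 in R 4.3.3 used genes that reached 1 FPKM in 2 or more libraries, line as a covariate, an intensity trend, two-sided tests and a threshold of 0.05. The code was tested on simulated data. Python 3.11.15 and scipy 1.17.1 did the rest.

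Genes named are HOXB9, the 10 members, markers, per list up to 4 genes with the largest change among those at 5 FPKM or more in a library of that line, and the 5 genes most like the member of largest range. The other genes named were chosen after their values were seen. The members and lists were chosen with earlier results of these data known. Alternatives were a pseudocount of 0.1 FPKM, other filters, rescaling, centring, quantile normalization, a 1.5-fold rule, the variance options, no line term and means. The values of 1 junction list gene are not reported here.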

Additional observations from a re-analysis of the deposited data

Results flagged for a closer look

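In 4 of the 10 genes the siHOXB9 library lay on opposite sides of its control in the 2 lines. Over all genes, 43.0% lay above 0 in AGS and 63.1% in MKN1. The share of all genes on opposite sides was not counted, so the 4 of 10 cannot be set beside it. The difference between the lines was not tested, since 1 library per group leaves no residual degree of freedom for it. The log2 change of CTGF was 0.38 in AGS and -0.36 in MKN1, a difference (MKN1 minus AGS) of -0.74. That of ANKRD1 was -0.29 and 0.59, a difference of 0.88, with the MKN1 value resting on about 5.02 and 16.1 fragments. For CYR61 the changes were 0.29 and -0.05, a difference of -0.34. For AJUBA they were -0.05 and 0.10, a difference of 0.145, and its AGS change turned positive with rescaling or centring.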

How the results depend on the processing

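The count of members past the size rule was 0 in each direction and line under every alternative tried, except that 1 member (LATS2, MKN1) was higher with a 1.5-fold rule. For ANKRD1 in MKN1 this depends on the filter. Its change was 0.587 in the main setting and 1.478 with a pseudocount of 0.1 FPKM, but it stayed under 1 FPKM there and was not counted. Under all 7 alternatives limma called 0 members for siHOXB9, and between the lines its count stayed within 1.5 times the 6 called, with LATS2 alone lost, with no filter. Some list values near 0 changed sign. The mean of the Hippo kinase list was -0.004 in AGS against a median of 0.039, and its MKN1 median was -0.067 after centring. The junction list had a MKN1 median of -0.039 after centring, and the coactivator list a MKN1 mean of 0.009 against a median of -0.08. Rescaling or centring moved a member's change by more than its counting error in 11 cases (2 in AGS, 9 in MKN1). In 9 of these the gene has several coding transcripts and the fragment number was taken from the longest, so the interval is approximate. The sign of a member's change turned only for AJUBA in AGS. Over all genes the calls for siHOXB9 numbered 1 in the fit reported, 0 with a pseudocount of 0.1 FPKM, no filter, quantile normalization or no line term, 8 with a filter of 5 FPKM and 7 with the robust option. Between the lines the total was 5109, and 2750 with no filter. With line as a term, the fit sets each siHOXB9 library against the control of its own line, and the fit without that term is its unpaired form. No block by replicate was possible, and no replicate could be left out, since each group holds 1 library. Leaving out a line leaves the values within the other line, with no test.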

Other observations

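In the LATS and angiomotin families, 1 paralogue held most of the transcript in each library. LATS2 made up 63.4% and 67.3% of the summed LATS1 and LATS2 FPKM in AGS (siScramble, then siHOXB9) and 82.3% and 86.1% in MKN1. AMOTL2 made up 74.3% and 79.1% of the angiomotin family (AMOT, AMOTL1, AMOTL2) in AGS and 91.1% and 94.3% in MKN1. AMOT itself was listed at 0 in MKN1 siScramble and was at 0.383 FPKM in MKN1 siHOXB9, and at 0.126 and 0.679 FPKM in the AGS libraries. In these 2 families the dominant paralogue is also the YAP target of the family. Shares within a family from 1 library per group carry no replicate error.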
